A study of Mus musculus with 23 samples.

Results

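The MHC class I presentation genes described here were 10 genes of the 47643 in the table: the heavy chains H2-K1 and H2-D1, the light chain B2m, the peptide loading genes Tap1, Tap2 and Tapbp, the immunoproteasome subunits Psmb8, Psmb9 and Psmb10, and the transactivator Nlrc5. They were chosen by name, with earlier results of these data known. Each matched exactly 1 row, and they were followed through all 23 RNA-seq libraries. The libraries came from B16F10, a mouse melanoma cell line derived from the C57BL/6 strain. Bulk tumors, tumor cells purified from tumors with magnetic beads (sorted tumor cells) and cultured cells each had 2 libraries of control cells (genotype WT) and 2 of each Nr2f6 guide, sg492 and sg495 (both labeled NR2F6 KO). The edited cells were pools sorted for a Cy3-labeled guide after transfection with Cas9 protein, with no step of picking 1 clone described. The methods of the study describe subcutaneous grafts in young male C57BL/6 mice, but the labels give no age, sex or time of growth for these libraries. A further 5 libraries, all NR2F6 WT, are labeled IgG_Control (2) or anti-PD1 (3), and their labels name B16F10 but no tissue. The question was how the presentation genes stood in each sample type, with each guide and with the antibody.

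MHC class I molecules display peptides from inside the cell to CD8+ T cells. A heavy chain such as H2-K1 (H-2K) or H2-D1 (H-2D) pairs with B2m, the invariant light chain. Peptides are cut by the proteasome, carried into the endoplasmic reticulum by the transporter formed of Tap1 and Tap2, and loaded with the help of tapasin (Tapbp). Interferon-γ induces Psmb8, Psmb9 and Psmb10, which take the places of the constitutive catalytic subunits Psmb5, Psmb6 and Psmb7 to form the immunoproteasome. Nlrc5 is a transactivator of class I genes that works through the proteins bound at the conserved elements of their promoters, while interferon regulatory factors bind sites in many of the same promoters. Melanoma cells can hold this set of genes at a low level and raise it on exposure to interferon.

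Promoter sequences are shown for the heavy chains, since H2-K1 and H2-D1 moved together in tumors and apart in culture, and for B2m, which had the highest level, and Psmb8, which had the largest rise with sg495 in sorted tumor cells. RefSeq (GRCm38.p6) gave a window of 250 bases before and 50 bases after the start for 8 of the 10 members, and none was used for Tap2 and Nlrc5. Both strands were searched for an interferon regulatory factor core (GAANNGAAA, or its second form GAAANNGAA), a gamma-activated site (TTCNNNGAA), a kappa-B site (GGGNNTTCC) and the core of site alpha (TGACGC). The form GAANNGAAA was added after the sequences had been seen. Positions are counted from the start base, taken as 0, and capitals mark every match. H2-K1 is shown at chr17:34000298-34000597 (minus strand), H2-D1 at chr17:35262844-35263143 (plus strand), B2m at chr2:122147437-122147736 (plus strand) and Psmb8 at chr17:34197945-34198244 (plus strand).
H2-K1: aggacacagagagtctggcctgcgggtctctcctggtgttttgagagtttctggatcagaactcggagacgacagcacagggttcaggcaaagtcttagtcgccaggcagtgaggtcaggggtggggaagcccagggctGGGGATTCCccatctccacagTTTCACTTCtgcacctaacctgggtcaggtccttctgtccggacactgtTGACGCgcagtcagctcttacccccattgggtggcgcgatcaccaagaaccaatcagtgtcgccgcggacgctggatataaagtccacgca
H2-D1: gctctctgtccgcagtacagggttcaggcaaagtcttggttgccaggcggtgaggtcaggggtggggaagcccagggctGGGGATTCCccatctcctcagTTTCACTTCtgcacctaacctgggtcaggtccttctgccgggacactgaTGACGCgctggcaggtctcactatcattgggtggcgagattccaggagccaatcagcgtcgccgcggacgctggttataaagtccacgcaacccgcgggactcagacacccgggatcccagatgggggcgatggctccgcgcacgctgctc
B2m: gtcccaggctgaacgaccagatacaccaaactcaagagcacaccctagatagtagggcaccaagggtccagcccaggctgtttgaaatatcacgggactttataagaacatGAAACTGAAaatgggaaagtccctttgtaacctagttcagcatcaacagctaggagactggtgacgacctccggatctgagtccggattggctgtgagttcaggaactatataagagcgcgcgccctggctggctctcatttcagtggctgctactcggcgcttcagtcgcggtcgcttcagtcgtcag
Psmb8: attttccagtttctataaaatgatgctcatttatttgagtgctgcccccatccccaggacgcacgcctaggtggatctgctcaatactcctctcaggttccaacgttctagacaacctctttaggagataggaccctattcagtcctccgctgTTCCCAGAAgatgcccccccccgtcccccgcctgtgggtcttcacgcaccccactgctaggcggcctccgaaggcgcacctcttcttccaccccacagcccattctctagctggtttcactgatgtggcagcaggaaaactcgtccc
The heavy chain promoters held the same 3 elements in the same order. In H2-K1 the kappa-B match lay at −111 to −103, the interferon regulatory factor match, read on the other strand, at −90 to −82, and the site alpha match at −41 to −36. In H2-D1 they lay at −171 to −163, −150 to −142 and −101 to −96, so that the first bases were 21 and 49 bases apart in both genes. The longest run of bases that both windows share is 47 bases long. RefSeq lists 2 starts for H2-K1. The window of the other start held the same matches at −125 to −117, −104 to −96 and −55 to −50. Positions thus depend on the listed start, unlike the spacing between matches. In B2m the capitals mark a match of the second form at −139 to −131, and in Psmb8 a gamma-activated site match, the same on both strands, at −97 to −89. Of 32851 promoters of this length, 7.52% held GAANNGAAA, 8.56% GAAANNGAA, 8.3% the gamma-activated site, 5.82% the kappa-B site and 7.4% the site alpha core. Tap1 and Psmb9 are divergent neighbors whose windows share 275 bases, and these letters were not found in their windows, nor in those of Tapbp and Psmb10. The windows of H2-D1, Psmb8, Psmb9 and Tapbp lie inside the gene positions given below. Sequence before the outermost annotated start of these genes was not searched. A match describes the sequence only.

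By position, 7 members lie on chromosome 17 of GRCm38. Psmb9 (34181987 to 34187764), Tap1 (34187553 to 34197225), Psmb8 (34197721 to 34201454) and Tap2 (34203527 to 34216321) stand side by side, with Tapbp (33915899 to 33929292) and H2-K1 (33996017 to 34000347) on one side and H2-D1 (35262730 to 35267499) on the other. B2m lies on chromosome 2 (122147686 to 122153083). Psmb10 (105935735 to 105938444) and Nlrc5 (94434356 to 94527272) lie on chromosome 8, which also carries Nr2f6. The heavy chains belong to a family of close copies. In the annotation used here, 3.1% of the 75-base windows (the read length) of H2-K1 transcripts and 5.4% of those of H2-D1 also occur in other genes, at most 2.38% in H2-Q10 for H2-K1 and 4.25% in H2-Q1 for H2-D1. Such windows make the values of these genes uncertain, but their share does not measure by how much. Of the Tapbp windows, 1.1% were shared with other genes. No such window of B2m, Tap1, Tap2, Psmb8, Psmb9, Psmb10 or Nlrc5 was shared.

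Values are TPM, transcript abundance scaled for gene length and library, which can be compared between genes. TPM carry no read total, so the depth of a library is unknown here, and the labels give only a range for all of them. Each comparison used limma on log2(TPM + 1). A gene is termed called where its fold change was 1.5 or more and its p, adjusted by the Benjamini-Hochberg method, was under 0.05. With 2 libraries per group an exact permutation test cannot give a 2-sided p below 0.333. The labels do not say that replicates came from separate mice or cultures, so p-values measure the spread between these libraries. The targeted gene, Nr2f6, was lower with sg495 in all 3 sample types, at 17.2 and 15.8 TPM against 25.8 and 25.2 TPM of the controls in bulk tumors, 10.6 and 12.2 against 20.3 and 17.7 after sorting, and 18.6 and 22.4 against 31.9 and 32.9 in culture. With sg492 it stood at 22.3 and 23.3 TPM in bulk and at 26.6 and 31.5 TPM in culture. Sorted libraries with the label sg492 had 19.8 and 25.7 TPM, no lower than control, so they are named by their label below and no direction of an Nr2f6 edit is read from them. By limma, Nr2f6 with sg495 had log2 fold changes of −0.60 (bulk), −0.69 (sorted) and −0.64 (cultured). Their adjusted p-values were 0.0865, 0.126 and 0.02125, so Nr2f6 was called only in culture. With sg492 the log2 fold changes were −0.16 (bulk), 0.24 (sorted) and −0.16 (cultured). Their adjusted p-values by limma were 0.6775, 0.769 and 0.6635, so Nr2f6 was not called with sg492. With sg495 the median log2 fold change of all chromosome 8 genes was −0.25 (bulk), −0.34 (sorted) and −0.33 (cultured). This bears on Nr2f6, Psmb10 and Nlrc5, which all lie on that chromosome. The melanocyte markers summed to between 14840 and 17844 TPM in these 18 libraries.

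In cultured control cells the members formed 2 tiers. B2m was highest with 239 and 233 TPM, followed by H2-D1 with 48.0 and 49.4, H2-K1 with 32.2 and 30.4, Psmb10 with 11.9 and 14.8, and Tapbp with 8.39 and 10.1 TPM. Only the neighbors Psmb10 and Tapbp in this order came close to each other, with no overlap between the 2 libraries of each. Tap1 (0.37 and 0.57 TPM), Tap2 (0.23 and 0), Nlrc5 (0.05 and 0.18) and Psmb8 (0 and 0.17) were below 1 TPM, and Psmb9 was listed at 0. These 5 genes stayed below 1 TPM in all 6 cultured libraries, Psmb9 being listed at 0 in 6 of them and Psmb8 in 5. The transporter, the transactivator and the inducible subunits Psmb8 and Psmb9 were thus near the lowest listed values in culture, while both heavy chains, B2m, tapasin and Psmb10 were not.

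In control cells grown as tumors and then sorted, B2m was again highest and the same 5 genes were lowest, at no more than 4.67 TPM, while H2-K1 and H2-D1 overlapped. Against cultured control cells, 2 of 10 members were called, both higher, where 20.2% of 13152 genes were called in either direction. H2-K1 had 71.7 and 70.5 TPM after sorting, a log2 difference of 1.16 (standard error 0.268, adjusted p = 0.00396). Tap2 had 1.70 and 2.52 TPM, a log2 difference of 1.48 (standard error 0.286, adjusted p = 0.00125). For 6 members both sorted control libraries were above both cultured ones, which 36.4% of all genes did. Psmb8, Psmb9 and Nlrc5 passed the filter on low values (a mean of 1 TPM) here only through other libraries of the fit. In a fit of only these 2 groups 7 members passed it, and Psmb8, Psmb9 and Nlrc5 did not. A call of any of them, as when a library is left out, is therefore not read as a difference between these groups. Sorted control replicate 2 was the lower for 9 of 10 members, Tap2 being the exception, with 0.60 TPM of Tap1 against 4.67 in replicate 1, 0 against 1.22 TPM of Psmb8, 0.17 against 2.20 TPM of Psmb9 and 0.15 against 1.68 TPM of Nlrc5. Without that library 6 members were called, where 19% of all genes were.

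Bulk control tumors stood above sorted control cells for every member. All 10 were called higher, with log2 differences from 1.36 for H2-K1 to 4.45 for Psmb8 (standard error 0.394, adjusted p = 3.696e-06) and a median of 2.05, where 12.7% of all genes were called in either direction. Psmb8 had 51.9 and 19.1 TPM in bulk control tumors against 1.22 and 0 TPM after sorting. B2m had 1180 and 739 TPM against 344 and 238 TPM. Bulk tumors hold other cells too. The 14 leukocyte markers summed to 293 and 205 TPM in bulk control tumors and to 18.8 and 16.9 TPM in sorted control cells, and their part in the difference was not tested. In bulk tissue, fewer cells of a type and less RNA per cell cannot be told apart.

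**Figure D1:**
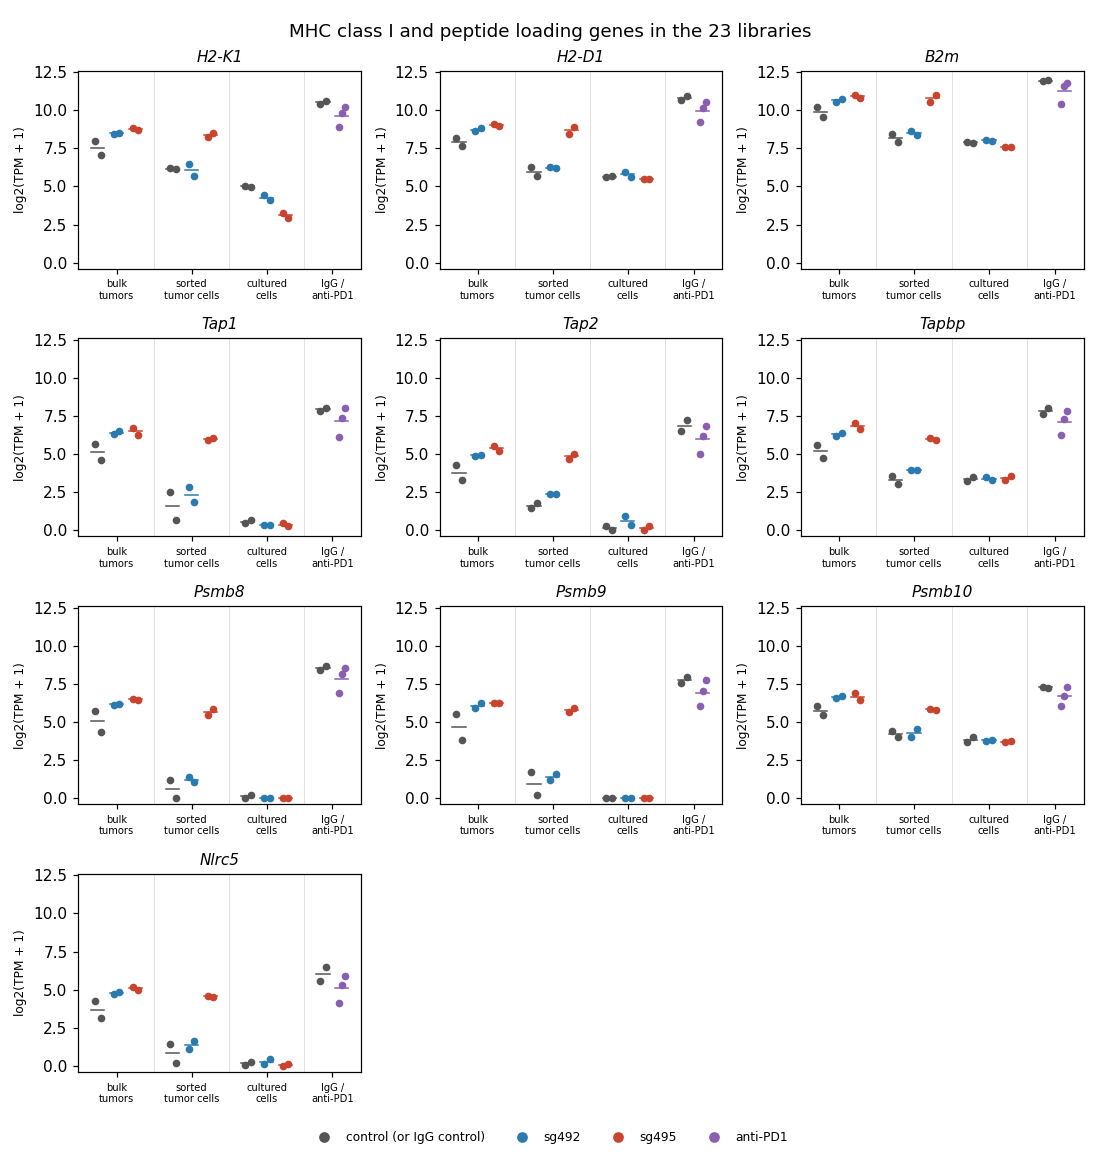
Level of each of the 10 members in the 23 libraries, as log2(TPM + 1) on the vertical axis. Points are libraries, short lines are group means, and colors mark control (or IgG control), sg492, sg495 and anti-PD1 libraries. In sorted tumor cells the 2 sg495 libraries lie above the control libraries in all 10 panels, while in cultured cells H2-K1 falls from control to sg495 and Tap1, Tap2, Psmb8, Psmb9 and Nlrc5 stay near 0.

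In sorted tumor cells, sg495 libraries had more RNA of every member than control. The class I chains rose together. H2-K1 went from 71.7 and 70.5 TPM in control to 304 and 369 TPM with sg495, a log2 fold change of 2.22 (standard error 0.249, adjusted p = 0.0230). H2-D1 went from 75.8 and 50.8 to 353 and 479 TPM (log2 fold change 2.71, standard error 0.216, adjusted p = 0.00969). B2m went from 344 and 238 to 1518 and 2086 TPM (log2 fold change 2.63, standard error 0.225, adjusted p = 0.0122). For each chain both sg495 libraries stood far above both controls, with no overlap.

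The transporter, tapasin and Nlrc5 rose from lower levels. Tap1 had 4.67 and 0.60 TPM in control and 60.1 and 67.4 TPM with sg495 (log2 fold change 4.42, standard error 0.605, adjusted p = 0.0392). Tap2 had 1.70 and 2.52 against 25.1 and 32.0 TPM (log2 fold change 3.25, standard error 0.195, adjusted p = 0.00487). Tapbp had 10.7 and 7.33 against 65.8 and 60.5 TPM (log2 fold change 2.7, standard error 0.169, adjusted p = 0.00487). The sg495 libraries lay above the controls without overlap in each case. Nlrc5 had 1.68 and 0.15 TPM in control and 23.4 and 21.5 TPM with sg495 (log2 fold change 3.74, standard error 0.416, adjusted p = 0.0223), although the genes of its chromosome were lower as a whole.

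The immunoproteasome subunits showed the widest span of changes. Psmb8 had 1.22 and 0 TPM in control and 42.0 and 57.6 TPM with sg495, a log2 difference of 5.07 (standard error 0.394, adjusted p = 0.00964). It passed the filter on low values only through the sg495 libraries, since its mean without them was 0.968 TPM. Psmb9, with 2.20 and 0.17 against 49.4 and 59.3 TPM, rose by 4.83 on the log2 scale (standard error 0.456, adjusted p = 0.0146). Psmb10, which was already present in control with 19.9 and 15.2 TPM, reached 56.2 and 54.5 TPM (log2 fold change 1.62, standard error 0.190, adjusted p = 0.0262). The scale of log2(TPM + 1) understates the change of genes as low as Psmb8 and Psmb9.

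Counted together, the 9 members that passed the filter without the sg495 libraries were all called higher, as was Psmb8, where 0.899% of 12899 genes were called in either direction (78 higher and 38 lower). The median log2 fold change of the 10 members was 2.98, against −0.04 over all genes. Both sg495 libraries were above both controls for all 10, which 17.9% of all genes were. Leukocyte markers stayed low in these libraries: the 14 markers summed to 23.5 and 28.2 TPM with sg495 and to 18.8 and 16.9 TPM in control, Ptprc (CD45) had at most 0.15 TPM, and Cd3e was listed at 0 in all 6 sorted libraries. Mitochondrial genes took 8.02% and 3.82% of the TPM with sg495 against at most 4.03% in control. The calls rested on both sg495 libraries. Without either of them no member was called (limma adjusted p from 0.0943 to 0.184 without replicate 1 and from 0.110 to 0.166 without replicate 2), and only 4 and 5 genes were called at all, while the members' log2 fold changes still ran from 1.60 to 5.30 and from 1.64 to 4.85. Without control replicate 2, 5 members and 0.201% of genes were called, and with no filter on low values no member and 0.0128% of genes were (adjusted p of the members from 0.0521 to 0.121).

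The sorted libraries labeled sg492 did not share this pattern. They had 86.3 and 49.4 TPM of H2-K1, 76.3 and 73.3 TPM of H2-D1, and 406 and 331 TPM of B2m, which overlapped the control libraries for all 3 chains. Tap1 had 6.10 and 2.58 TPM, Psmb10 15.3 and 21.7 TPM, and Nlrc5 1.15 and 2.08 TPM. None of the 10 members was called against control by limma, where 0.0388% of genes were. An unadjusted p below 0.05 was found for 7.13% of all genes and for 2 members. These were Tap2, with 4.32 and 4.33 TPM (log2 fold change 0.79, adjusted p = 0.561), and Tapbp, with 14.7 and 14.3 TPM (log2 fold change 0.65, adjusted p = 0.570). The median log2 fold change was 0.49, and for 2 members, Tap2 and Tapbp, both libraries were above both controls, as for 20.4% of all genes. The guides share their control libraries, so they were also compared directly. With sg495 against the libraries labeled sg492, 8 of the 9 members that passed the filter without the sg495 libraries were called higher, as was Psmb8, where 0.589% of genes were called. H2-D1 differed by 2.44 on the log2 scale (standard error 0.216, adjusted p = 0.0149) and Psmb10 by 1.55 (standard error 0.190, adjusted p = 0.0355). The exception was Tap1, with a log2 difference of 3.68 and the largest standard error, 0.605 (adjusted p = 0.0739). Without sg492 replicate 1, 1 member was called (0.0854% of genes), and without any 1 of the other 3 libraries none was, with log2 differences from 1.32 to 4.66 over these fits.

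**Figure D2:**
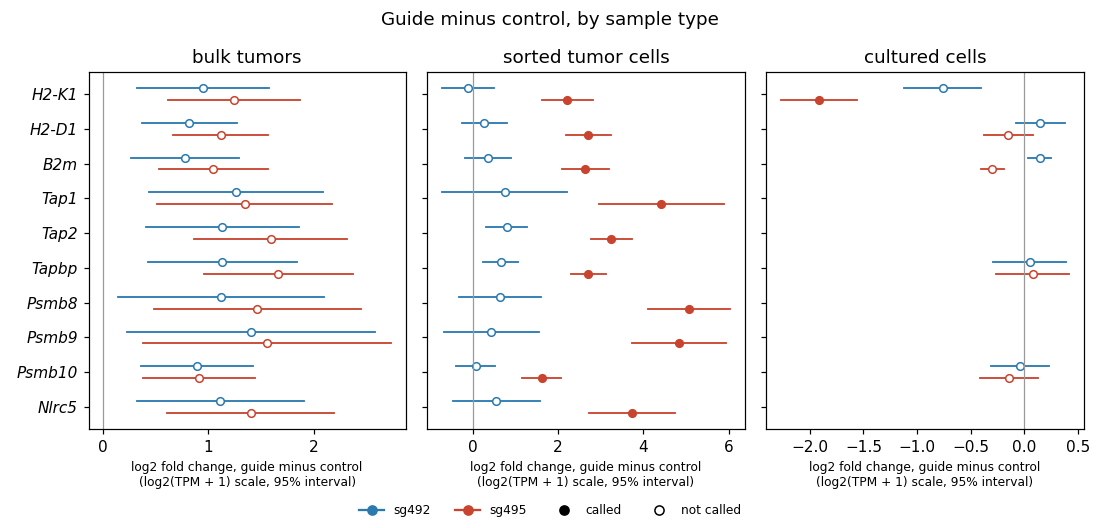
Log2 fold change of each tested member with sg492 (blue) and sg495 (red) against control in the 3 sample types, on the log2(TPM + 1) scale. Bars are 95% intervals from limma, filled points are called, and the horizontal scales differ between panels. With sg495 all 10 members are called in sorted tumor cells, Psmb8 having passed the filter only through the sg495 libraries, none is called in bulk tumors, and H2-K1 is called lower with sg495 in cultured cells, where 5 members were tested.

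In bulk tumors the members were higher with both guides, but none was called. H2-K1 had 250 and 136 TPM in the controls, 349 and 365 with sg492 and 460 and 418 with sg495. B2m had 1180 and 739 TPM in the controls, 1491 and 1723 with sg492 and 2052 and 1819 with sg495. Tapbp had 48.4 and 25.8 TPM in the controls, 73.8 and 83.9 with sg492 and 133 and 97.8 with sg495. In these genes, as in the other 7, both libraries of each guide were above both controls. Nlrc5 had 17.6 and 7.77 TPM in the controls, 25.7 and 27.7 with sg492 and 35.3 and 30.4 with sg495. Psmb9 had the largest ratio between its controls, 44.3 and 13.3 TPM, below 59.7 and 73.4 with sg492 and 74.2 and 73.5 with sg495. The controls of every member were apart in the same way, with replicate 2 the lower for 10 of 10.

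With sg495 the log2 fold changes in bulk tumors ran from 0.91 for Psmb10 to 1.66 for Tapbp, with a median of 1.37, against 0.06 over all genes. Adjusted p-values by limma ran from 0.0908 to 0.199, and 0 of 10 members were called, where 0.0293% of 13639 genes were. All 10 had an unadjusted p below 0.05, as did 15.65% of all genes. H2-D1 came nearest, with 294 and 197 TPM in control and 537 and 511 TPM with sg495 (log2 fold change 1.12, standard error 0.186, adjusted p = 0.0908). For all 10 the sg495 libraries did not overlap control, but 31.6% of all genes were placed that way too. With sg492 the log2 fold changes ran from 0.78 for B2m to 1.40 for Psmb9 (median 1.12, adjusted p from 0.481 to 0.551), and no gene was called (0%). All 10 members again had an unadjusted p below 0.05, as did 8.3% of all genes, and all 10 did not overlap control, as 31.1% of genes did. The direct comparison of the guides called no gene (0%), and no member had an unadjusted p below 0.05, while 10.15% of all genes did. The sg495 libraries were above the sg492 libraries for 8 members, a placing that 21.1% of genes shared, and the interval of the difference for H2-K1, from −0.33 to 0.92 on the log2 scale, holds both no difference and a sizable one.

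These counts moved with the libraries in the fit. Without bulk control replicate 1, whose members were higher, 9 members were called with sg495 (log2 fold changes from 1.19 to 2.39), where 1.39% of genes were, and 8 with sg492, where 0.483% were. Without control replicate 2, no member was called with sg495 and the range was 0.63 to 1.22. In a fit of all 18 libraries 7 members were called with sg495, where 3% of genes were. Leukocyte markers moved with the members in bulk tumors: their sum was 293 and 205 TPM in the controls, 350 and 384 with sg492 and 442 and 515 with sg495, and none of the 14 was at 0. Ptprc had 9.29 and 5.74 TPM in control and 18.2 and 26.2 TPM with sg495. The fibroblast markers summed to 403 and 340 TPM in the controls, 460 and 550 with sg492 and 550 and 956 with sg495. Their part in the higher members was not tested.

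Sorted sg495 cells were also set beside unsorted tumors. Both sorted sg495 libraries were above both bulk control libraries for 8 members, the exceptions being Psmb8 and Psmb10, and so were they for 24.3% of all genes. H2-D1, for example, had 353 and 479 TPM in sorted sg495 cells and 294 and 197 TPM in bulk control tumors. Both were below both bulk sg495 libraries for 9 members, the exception being B2m with 1518 and 2086 TPM against 2052 and 1819 TPM, a placing that 41.3% of genes shared. This placing of libraries across sample types was not tested.

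**Figure D3:**
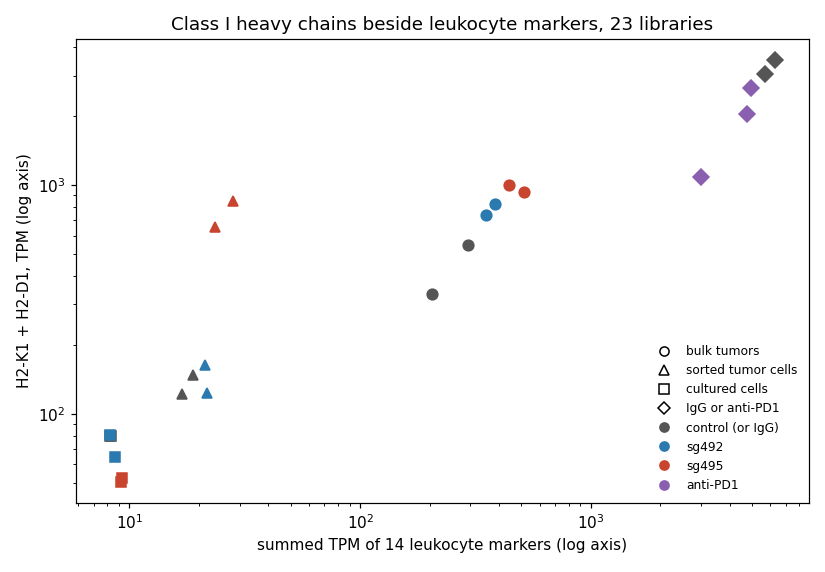
Summed TPM of H2-K1 and H2-D1 (vertical) against the summed TPM of 14 leukocyte markers (horizontal) in the 23 libraries, both on log axes. Shapes mark the sample type and colors the group. The sorted sg495 libraries stand apart at 656 and 848 TPM of heavy chains with 23.5 and 28.2 TPM of leukocyte markers, while bulk control tumors had 545 and 333 TPM with 293 and 205 TPM.

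In cultured cells H2-K1 went the other way. It had 32.2 and 30.4 TPM in the controls, 20.4 and 15.9 with sg492 and 8.55 and 6.69 with sg495. The 3 groups did not overlap. With sg495 the log2 fold change was −1.91 (standard error 0.147, adjusted p = 0.00192), and it kept a negative sign and an adjusted p below 0.05 in all 15 alternatives tried, with values from −2.07 to −1.76. With sg492 it was −0.76 (standard error 0.147, adjusted p = 0.217), and the direct comparison of sg495 with sg492 gave −1.15 (standard error 0.147, adjusted p = 0.00794). H2-D1, its close relative, had 48.0 and 49.4 TPM in the controls, 60.1 and 48.9 with sg492 and 43.9 and 43.8 with sg495. Its log2 fold change with sg495 was −0.15 (95% interval −0.38 to 0.08, adjusted p = 0.362), an interval that excludes a change of the size of that of H2-K1.

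Of the other members, B2m had 239 and 233 TPM in the controls, 269 and 254 with sg492 and 196 and 188 with sg495. Its log2 fold change with sg495 was −0.30 (standard error 0.0444, adjusted p = 0.0125), below the threshold of fold change. Against sg492 it was −0.44 (standard error 0.0444, adjusted p = 0.00479), also below that threshold. Tapbp, with 8.96 and 10.7 TPM with sg495, had a log2 fold change of 0.08 (adjusted p = 0.760), and Psmb10, with 11.8 and 12.2 TPM, of −0.14 (adjusted p = 0.471). Tap1, Tap2, Psmb8, Psmb9 and Nlrc5 were below the filter and could not be tested. So 1 of 5 tested members was called with sg495, where 2.77% of 12007 genes were (88 higher and 244 lower). The sg495 libraries were below control for H2-K1, H2-D1 and B2m, as for 28.9% of genes. With sg492 no tested member was called by limma, where 0.05% of genes were. H2-K1 and B2m had an unadjusted p below 0.05, as did 10.54% of all genes. Between sg495 and sg492, 1 of 5 was called, H2-K1, where 2.61% of genes were called. The lower H2-K1 was not seen among its neighbors. The 14 other genes within 100000 bases that passed the filter, a window chosen after the values were seen, had log2 fold changes with sg495 from −0.53 to 0.31, with a median of 0.02.

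The sg495 effect differed between sorted and cultured cells for the 5 members that could be tested in both, H2-K1, H2-D1, B2m, Tapbp and Psmb10. Their interaction, the sg495 effect in sorted tumor cells minus that in cultured cells, was positive and called, where 2.51% of 13152 genes were called (245 higher and 85 lower). It was smallest for Psmb10 at 1.76 (standard error 0.294, adjusted p = 0.00785). H2-K1, which rose in one setting and fell in the other, had an interaction of 4.13 (standard error 0.378, adjusted p = 0.000234), and H2-D1 of 2.86 (standard error 0.291, adjusted p = 0.000472). The interaction was also called for Tap1, Tap2, Psmb8, Psmb9 and Nlrc5, but these were below 1 TPM in every cultured library, so that it mostly restates their change in sorted cells. The 10 calls held in each of 17 alternatives. For bulk tumors minus cultured cells the interaction was positive in all 10 and called for 4, namely H2-K1 (3.16), H2-D1 (1.27), B2m (1.35) and Tapbp (1.58), where 1.76% of genes were called. That count ran from 1 to 8 when libraries were left out in turn. Sorted and cultured cells differ in handling as well as in growth, which cannot be told apart.

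The ratio of paired genes within a library does not depend on its scaling. Psmb8 per constitutive Psmb5 was 0.270 and 0.0958 in bulk control tumors, 0.373 and 0.345 with sg492, and 0.446 and 0.432 with sg495. In sorted cells it was 0.00677 and 0 in control, 0.00877 and 0.00610 in the libraries labeled sg492, and 0.249 and 0.284 with sg495. Sorted sg495 cells thus had about as much Psmb8 per Psmb5 as the higher bulk control tumor. Psmb9 per Psmb6 was 0.00959 and 0.000750 in sorted control and 0.203 and 0.231 with sg495, and Psmb10 per Psmb7 was 0.0689 and 0.0527 against 0.202 and 0.166. The heavy chains kept a narrow ratio in bulk tumors, with H2-K1 per H2-D1 between 0.690 and 0.891 in the 6 libraries. In cultured cells that ratio was 0.671 and 0.615 in control, 0.340 and 0.325 with sg492, and 0.195 and 0.153 with sg495. In sorted cells it was 0.946 and 1.39 in control, 1.13 and 0.674 in the libraries labeled sg492, and 0.861 and 0.769 with sg495. The group means there, 1.17, 0.902 and 0.815, stood in the same order as in culture. Those of bulk tumors, 0.770 in control, 0.839 with sg492 and 0.838 with sg495, did not. In sorted cells both sg495 libraries were below both controls, a placing that was not tested. The libraries labeled sg492 overlapped both other groups.

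**Figure D4:**
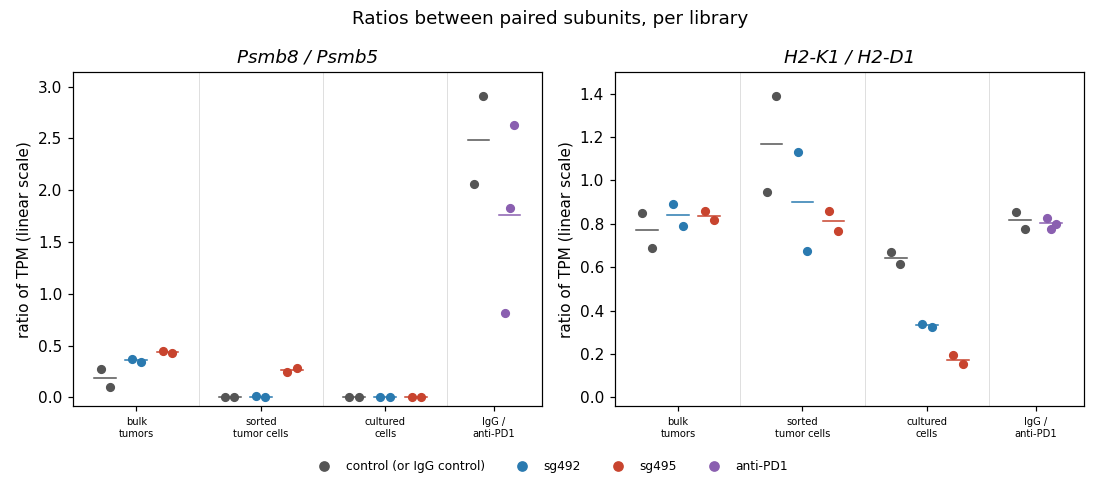
Ratio of Psmb8 to Psmb5 (left) and of H2-K1 to H2-D1 (right) in each library, on linear scales. Points are libraries, lines are group means, and colors mark control (or IgG control), sg492, sg495 and anti-PD1. Psmb8 per Psmb5 is 0.249 and 0.284 in sorted sg495 cells and at most 0.00877 in the other sorted libraries, and H2-K1 per H2-D1 steps down from control to sg492 to sg495 in cultured cells.

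Other genes of the pathway were read from 5 lists, and all their genes passed the filter in the 3 sample types. With sg495 in sorted tumor cells, 0.899% of all genes were called in either direction. There 2 of 4 proteasome activators and assembly factors were called higher, Psme1 and Psme2, which form the interferon-inducible activator cap. Psme2 had 50.6 and 50.9 TPM in control and 216 and 197 TPM with sg495 (log2 fold change 2.01, standard error 0.0938, adjusted p = 0.00225), and Psme1 a log2 fold change of 1.52 (adjusted p = 0.0300). Among 6 genes of peptide trimming and folding in the endoplasmic reticulum, 2 were called higher: Erap1, the peptidase that trims peptides to length (log2 fold change 1.91, adjusted p = 0.0134), and Tapbpl, a peptide editor related to tapasin (1.58, adjusted p = 0.0195). Among 10 transcription factors, 1 was called higher, the interferon regulatory factor Irf1. It had 6.40 and 2.91 TPM in control and 73.3 and 53.7 TPM with sg495 (log2 fold change 3.57, standard error 0.360, adjusted p = 0.0167). Directly against the libraries labeled sg492, where 0.589% of all genes were called, Psme2, Erap1 and Tapbpl were called higher. Irf1 (log2 difference 2.59, adjusted p = 0.0505) and Psme1 (1.23, adjusted p = 0.0606) were not.

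With sg495 the constitutive proteasome was not among the genes called. Psmb5, Psmb6 and Psmb7 had log2 fold changes with sg495 between 0.07 and 0.13 in sorted cells, and the 11 other core subunits between −0.09 and 0.14. Sorted control cells had less of Psmb5, Psmb6 and Psmb7 than cultured ones, with log2 differences from −0.54 to −0.30. The 11 other subunits were lower there too, by −0.50 to −0.17. None passed the fold threshold, though the lowest adjusted p by limma was 7.84e-06 and 4.03e-05. In bulk tumors no gene of the 5 lists was called with sg495, and the largest values were those of Irf1 (1.52) and Tapbpl (1.42). In cultured cells none was called with sg495 against control either. Irf2 was called lower against sg492 (log2 difference −0.59, adjusted p = 0.0313), where 2.61% of all genes were called. The interaction between sorted and cultured cells was called for Irf1, Psme1, Psme2, Erap1 and Tapbpl, and for 2.51% of all genes. That between bulk tumors and cultured cells was called for the same listed genes except Psme1, and for 1.76% of all genes. Irf1 itself was lower in sorted than in cultured control cells, with 6.40 and 2.91 against 13.6 and 12.3 TPM (log2 difference −1.37, adjusted p = 0.00427). In that comparison the chaperone Calr (−0.64), the proteasome assembly factor Pomp (−0.65) and Rfxap (−0.97), a subunit of the RFX complex, were also called lower. Erap1 was called higher (1.03). Of all genes, 20.2% were called there in either direction. Bulk control tumors stood above sorted control cells for Irf1 (2.63), Psme2 (1.39), Erap1 (0.99), Psme1 (0.94) and Tapbpl (0.73), all called. They stood below them for the NF-Y subunit Nfyb (−0.63), also called. Of all genes, 12.7% were called in that comparison in either direction.

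**Figure D5:**
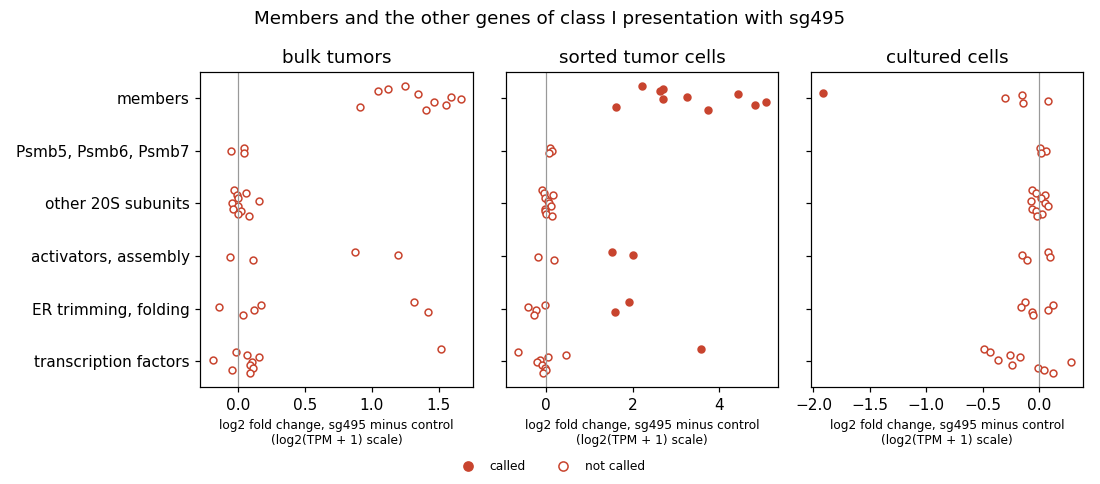
Log2 fold change with sg495 against control for the tested members and for 5 lists of other class I presentation genes, in the 3 sample types, on the log2(TPM + 1) scale. Each point is a gene, filled where called, and the horizontal scales differ. In sorted tumor cells Psme1, Psme2, Erap1, Tapbpl and Irf1 are called along with the members, while Psmb5, Psmb6 and Psmb7 lie between 0.07 and 0.13.

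Group means of all 10 members were highest with IgG control. Of single libraries, anti-PD1 replicate 3 had the most Tap1, 266 TPM against 233 and 262 TPM with IgG. H2-K1 had 1397 and 1535 TPM with IgG and 488, 887 and 1177 TPM with anti-PD1. B2m had 3833 and 4115 TPM with IgG and 1380, 3143 and 3521 TPM with anti-PD1. Psmb8 had 346 and 401 TPM with IgG and 117, 279 and 372 TPM with anti-PD1. The groups overlapped for Psmb8 and not for H2-K1 and B2m. For all 10 members both IgG libraries were above all 6 bulk tumor libraries, as for 20.8% of all genes, and Psmb8 per Psmb5 was 2.06 and 2.91. These 5 libraries carried much more leukocyte and less melanocyte RNA: leukocyte markers summed to 5673 and 6293 TPM with IgG and 2993, 4741 and 4947 TPM with anti-PD1, and melanocyte markers to between 1663 and 5015 TPM. The tissue cannot be read from their labels.

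Against IgG control, the members were lower with anti-PD1 in all 10 cases, with log2 fold changes from −0.92 for Nlrc5 to −0.59 for Psmb10 and a median of −0.80. None was called by limma (adjusted p from 0.608 to 0.620), nor was any other gene (0%). H2-K1 (−0.87, standard error 0.360) had an unadjusted p below 0.05, as did 7.18% of all genes. An exact permutation test of 3 against 2 libraries cannot go below a 2-sided p of 0.2. In 3 members, H2-K1, H2-D1 and B2m, every anti-PD1 library was below both IgG libraries, as in 15.8% of all genes. Anti-PD1 replicate 1 was the lowest of the 5 libraries for 10 of 10 members. It also had the smallest leukocyte sum, 0.65 TPM of Cd3e and 21.9% mitochondrial TPM, and their part in the lower members was not tested. Without that library the log2 fold changes ran from −0.52 to −0.21.

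Across all 23 libraries the members followed each other closely. Pearson r between pairs of members on log2(TPM + 1) ran from 0.939 to 0.996, with a median of 0.981 over 45 pairs, a description of libraries that share groups and leukocyte content. The pattern of each member resembled the mean of all 10, which includes that member, with r from 0.972 for H2-K1 to 0.996 for Psmb9. Among 13595 genes, the 5 others most like that mean were Zbp1 (r = 0.991), Ifi35 (0.991), Phf11d (0.989), Gbp3 (0.988) and Gbp2 (0.987).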

How the data were processed

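Poly(A) RNA of 23 libraries was sequenced from a single end. Per the labels and methods, the authors used Cutadapt 2.3 for trimming, STAR 2.7.0d for alignment to mm10 with an Ensembl annotation, and RSEM 1.3.1 for quantification. They deposited TPM for 47643 genes; estimated counts were not used here. TPM were used as log2(TPM + 1). Genes averaging 1 TPM or more in the libraries of a fit were tested with limma 3.58.1 in R 4.3.3 (lmFit, eBayes with trend, 1 mean per group, 2-sided, Benjamini-Hochberg over all tested genes). Guides were compared within a sample type (6 libraries), effects between sample types in a fit of 18 libraries, and anti-PD1 with IgG control in a fit of 5. The procedure was tested on simulated data with independent normal errors and changes set only in genes above a low mean level. That test does not cover genes at lower levels. The members, lists and tests were chosen with earlier results of these data known. The genes named are the members, Nr2f6, listed genes that were called, the constitutive subunits, markers, and the 5 genes most like the members; 1 listed gene is not reported here. Positions came from GENCODE M21 on GRCm38, the build of mm10, which holds 99.1% of the genes. Plots used Python 3.11.15, pandas 2.3.3 and matplotlib 3.10.9. Alternatives were another pseudocount, filters, scalings, no trend, no fold threshold, other sets of libraries, a replicate block, centering of chromosome 8, and leaving out each library.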

Additional observations from a re-analysis of the deposited data

Results flagged for a closer look

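The sg495 effect differed between sample types by the test of the difference itself, the limma interaction, for every member between sorted tumor cells and cultured cells, although Tap1, Tap2, Psmb8, Psmb9 and Nlrc5 were below 1 TPM in culture and their difference mostly restates the change in sorted cells. On the log2 scale the difference was 4.13 for H2-K1, 2.86 for H2-D1, 2.93 for B2m, 4.62 for Tap1, 3.23 for Tap2, 2.62 for Tapbp, 5.19 for Psmb8, 4.83 for Psmb9, 1.76 for Psmb10 and 3.82 for Nlrc5. Between bulk tumors and cultured cells it was 3.16 for H2-K1, 1.27 for H2-D1, 1.35 for B2m and 1.58 for Tapbp. Leukocyte markers and the handling of cells also differed between the sample types, and their part was not tested.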

How the results depend on the processing

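The 10 calls of the sorted minus cultured interaction and of bulk minus sorted control tumors held in every alternative run for them, as did the lower H2-K1 in cultured sg495 cells. The number of members called moved elsewhere. With sg495 in bulk tumors it was 7 in a fit of all 18 libraries and 0 to 9 with 1 library left out, and with sg492 in bulk tumors 0 to 8. With sg495 in sorted cells it was 6 with a pseudocount of 0.1, 0 with no filter, 6 without a trend and 0 to 8 with 1 library left out; against sg492 it was 0 with no filter, 3 without a trend and 0 to 1. In these sorted fits against control, 0.6125% of all genes were called with the other pseudocount, 0.0128% with no filter and 0.411% without a trend. Against sg492 the shares were 0.0853% with no filter and 0.271% without a trend. In cultured cells the number of members called without a fold threshold was 2 against control, where 12.01% of genes were called. It was also 2 against sg492, where no alternative called more than 10.99% of genes. For the bulk minus cultured interaction it was 1 with no filter, 2 without a trend, 2 with the replicate block and 1 to 8 with a library left out, and for sorted against cultured control 2 to 6. The cause was not tested, except that leaving out a library leaves fewer samples; the lone library of its group was then assumed to vary like the other groups.

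No difference that was called changed its sign under an alternative, while some that were not called did. Centering chromosome 8 turned Psmb10 in cultured sg495 cells to 0.19 against control and 0.26 against sg492. With 1 library left out, sorted sg492 minus control ran from −0.52 to 0.28 for H2-K1, −0.020 to 0.55 for H2-D1, −0.17 to 1.66 for Tap1, −0.29 to 1.16 for Psmb9, −0.17 to 0.30 for Psmb10 and −0.059 to 1.16 for Nlrc5. In cultured cells sg495 minus control ran from −0.042 to 0.20 for Tapbp and −0.29 to 0.010 for Psmb10, sg492 minus control from −0.072 to 0.17 for Tapbp and −0.18 to 0.11 for Psmb10, and sg495 minus sg492 from −0.088 to 0.15 for Tapbp. In bulk tumors sg495 minus sg492 ran from −0.15 to 0.31 for Tap1 and −0.21 to 0.25 for Psmb10. Sorted minus cultured control ran from −0.29 to 0.19 for Tapbp and −0.11 to 1.04 for Psmb8.

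Replicate numbers showed no pairing between groups of a sample type or between IgG and anti-PD1 libraries. Deviations of same-numbered libraries correlated there with r from −0.126 to 0.085. Replicate numbers were not checked for pairing between sample types. As a replicate block they gave 9 members called by limma with sg495 in sorted cells (0.6125% of genes) and 7 against sg492 (0.465%). With anti-PD1 the block gave 8 (3.83% of genes, lowest adjusted p = 0.00757 among members), where 1 anti-PD1 library has no partner. Depth is unknown from TPM, so genes listed at 0 have no lower limit.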
